A study of Mus musculus with 24 samples.

Results

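The 26S proteasome degrades proteins that carry a ubiquitin chain. Its 20S core is a barrel of stacked rings of alpha and beta subunits, and the proteolytic sites lie inside on the beta subunits Psmb5, Psmb6 and Psmb7. A 19S regulator caps the barrel: its base of ATPases (the Psmc genes) unfolds the substrate, and its lid of Psmd subunits removes the ubiquitin. In cells that receive interferon, Psmb8, Psmb9 and Psmb10 can replace the constitutive catalytic subunits to give the immunoproteasome, and other activators (Psme1 to Psme4) can take the place of the 19S regulator. Transcription of the constitutive subunits is known to respond to Nfe2l1, a membrane-bound factor that is released when proteasome capacity falls short.

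The proteasome subunit genes described here are the 48 mouse genes whose symbol is Psm, then a letter from a to g, then a number, out of 26995 gene symbols in the deposited tables. A gene can have several 3′UTR entries, and the one with the most total reads on average in the 24 libraries stood for it, so the choice used no difference between conditions. By role they were 8 alpha and 7 beta subunits of the 20S core, 4 tissue-restricted catalytic beta subunits, 6 base ATPases, 3 further base subunits (Psmd1, Psmd2 and the ubiquitin receptor Psmd4), 8 lid subunits, 3 chaperones of base assembly, 4 chaperones of 20S assembly, and 5 activators and inhibitors. The symbols leave out subunits with other names, such as Adrm1 and Sem1, which are described separately. Total reads could be tested for 46 members: the testis subunit Psma8 had 0 reads in all 24 libraries and the thymus subunit Psmb11 had 0 to 10 per library. Labelled reads could be tested for 35 members.

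The cells were 3T3-L1, a mouse fibroblast line that becomes adipocytes after hormonal induction. Cells in DMSO or in 0.5 μM ML-792, an inhibitor of the enzyme that activates SUMO, were collected at day −2, before induction, and at days 1, 3 and 7 after it, with 3 replicates (A, B and C) in each of the 8 conditions. All cells received 100 μM 4-thiouridine for 45 min before collection, so that newly made RNA could be read from T-to-C conversions (SLAMseq) in the same 3′ libraries that counted all RNA (QuantSeq). Cells of day −2 were in a maintenance medium with calf serum, those of days 1 and 3 had received dexamethasone, 3-isobutyl-1-methylxanthine, insulin and fetal bovine serum, and the medium of day 7 kept insulin and fetal bovine serum. Medium and day therefore cannot be told apart. The line is a single one, and every replicate comes from it.

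Libraries held between 13554718 and 27013352 total reads and between 115709 and 820046 labelled reads. All 8 adipocyte markers examined, among them Adipoq and Fabp4, rose by day 3, and their summed normalised counts went from 22740 to 24250 at day −2 to between 638200 and 712400 at day 7 in DMSO. The sum hides an uneven marker: Pparg had 9129, 1671 and 9566 raw reads in the DMSO libraries A, B and C of day 7. All 7 pre-adipocyte markers had fewer raw reads in each DMSO library of day 7 than in any of day −2. Ly6a and Pdgfra first rose at day 1. Ly6a had 1290, 1099 and 1176 raw reads at day −2 and 4849, 3789 and 5284 at day 1. Markers of dividing cells summed to between 14010 and 18320 at day 1, against 3710 to 4123 at day −2. In RNA from whole cultures, fewer cells of a type and less RNA per cell cannot be told apart.

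In DMSO, reads of the proteasome genes took a growing share of the RNA up to day 3 and then a smaller one. With one entry per gene, the members held 0.516% ± 0.0145 of all total reads at day −2 (SD, n = 3), 0.689% ± 0.00719 at day 1, 0.963% ± 0.0575 at day 3 and 0.758% ± 0.0349 at day 7. The lowest library of day 3 held 0.911% and the highest of any other day 0.792%, so the groups of day 3 and of the other days did not overlap. Compared with day −2, the 46 tested members had a median log2 fold change of 0.30 on day 1, 0.77 on day 3 and 0.59 on day 7, while all 13331 tested genes had medians of 0.00, 0.00 and -0.02. Taken letter by letter, the members' median lay between 0.26 and 0.42 at day 1, between 0.70 and 0.84 at day 3, and between 0.45 and 0.57 at day 7. Of the 46 members, 33 (71.7%) had their highest DMSO mean at day 3, compared with 20.1% of all tested genes.

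**Figure D1:**
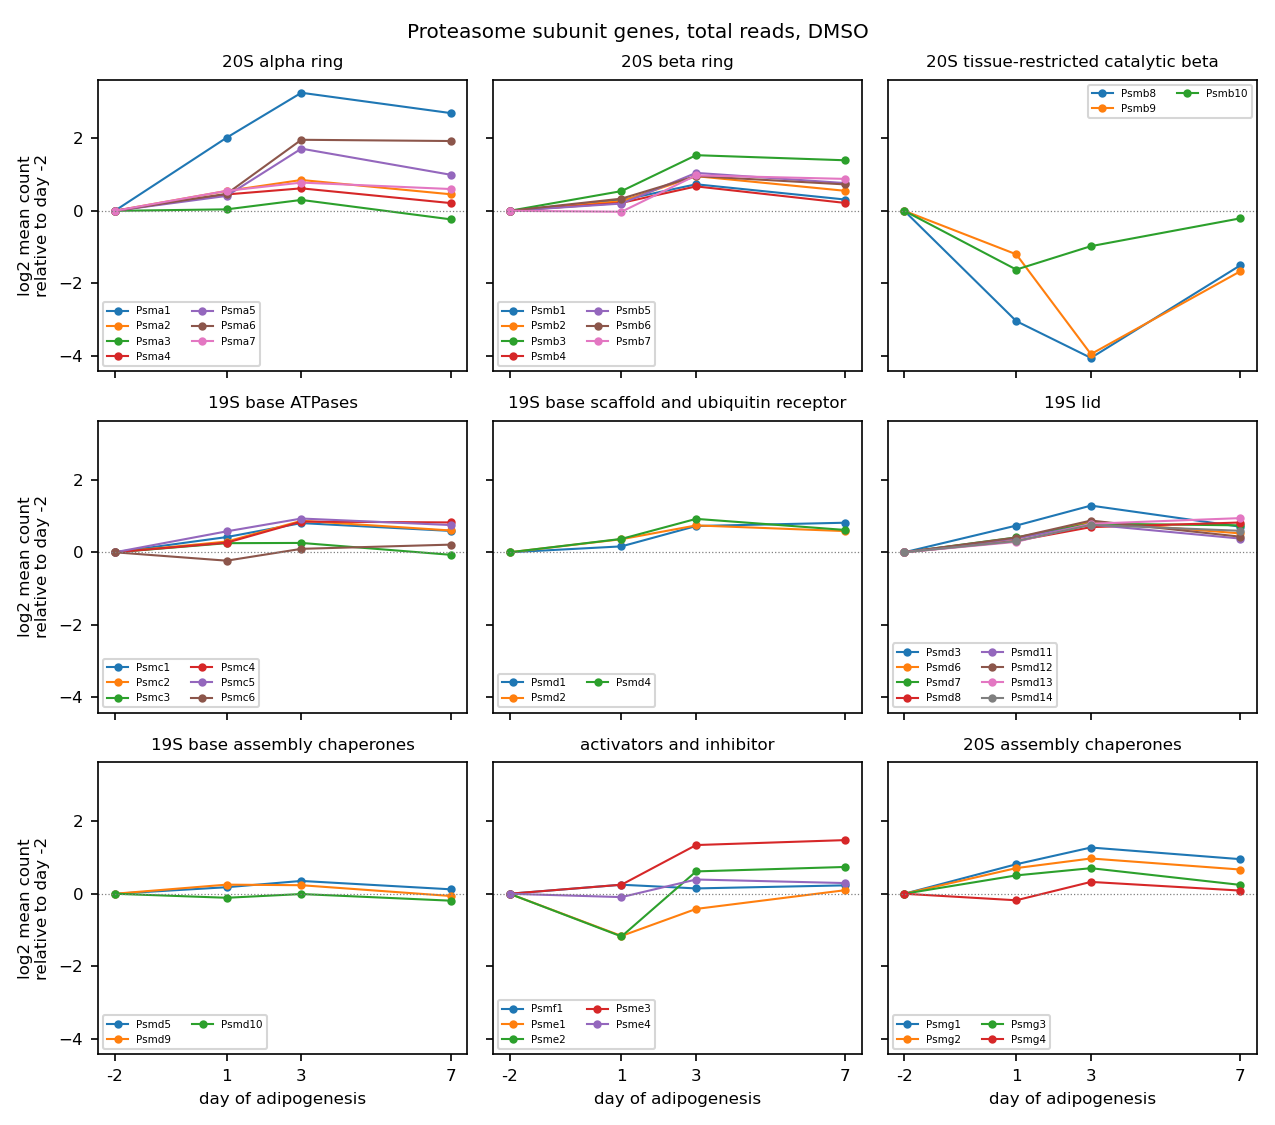
Mean log2 level of each tested proteasome gene relative to its own mean at day −2 in DMSO, plotted against day in 9 panels by role, with 1 line per gene. Most lines of the 20S, ATPase and lid panels rose to day 3 and came down part of the way by day 7, while Psmb8 and Psmb9 among the tissue-restricted catalytic subunits went the other way and Psma1 stood above the other alpha subunits.

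At day 3, 27 members were higher than at day −2 and 2 were lower by edgeR's quasi-likelihood test (Benjamini-Hochberg adjusted p under 0.01). Over all tested genes, 16.6% were called higher and 19.4% lower. For 29 members all 3 libraries of day 3 lay above all 3 of day −2, against 27.3% of all tested genes. The number of calls depended on single replicates: 8 members were called higher and 2 lower without replicate A, 6 and 2 without replicate C, and 30 and 3 without replicate B. The fold changes moved less, since the median of the members stayed between 0.75 and 0.90 in these fits.

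Most of the 31 constitutive subunits of the 20S core, base and lid lay close together at day 3. All 31 had a fold change above 0, between 0.10 and 3.26 on the log2 scale, 23 were called higher and none lower, and their interquartile range was 0.22 around a median of 0.85. Over all tested genes the interquartile range was 1.57. At day 1 the range of the same subunits was 0.17 around 0.36 (1.00 over all genes), and at day 7 it was 0.37 around 0.60 (1.62 over all genes). The middle of the subunits therefore lay closer together than that of all tested genes at each day, and those that stood apart are named in the following paragraphs. All tested genes include many with far fewer reads, and no set of matched read depth was compared. The part of read depth in the difference between the ranges was not tested.

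**Figure D2:**
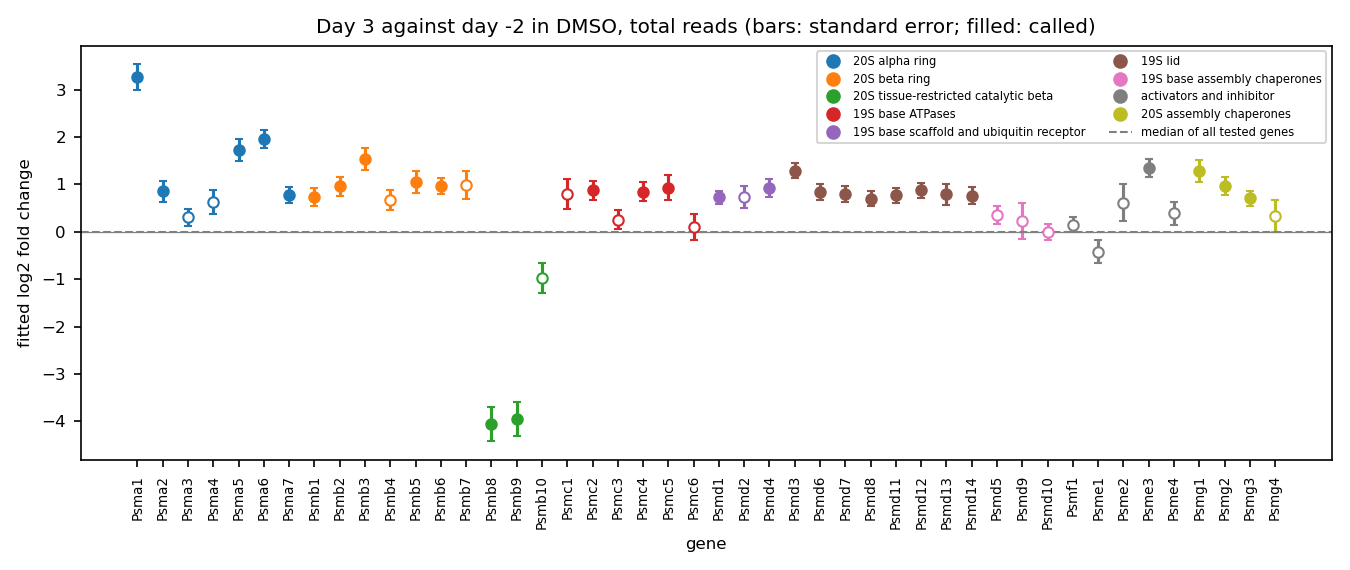
Fitted log2 fold change of the 46 tested proteasome genes at day 3 against day −2 in DMSO, grouped by role, with the standard error of the fit as bars. Filled points passed an adjusted p under 0.01 and the dashed line is the median of all tested genes. The 8 lid subunits are all filled and lie between 0.70 and 1.29, Psma1 lies highest and Psmb8 and Psmb9 lie lowest.

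Within the 20S core, 5 of the 7 tested alpha subunits and 5 of the 7 constitutive beta subunits rose by day 3. The beta subunits lay close together, between 0.68 and 1.54 on the log2 scale, and Psmb4 (0.68, adjusted p = 0.0150) and Psmb7 (0.98, adjusted p = 0.0132) did not pass the threshold. Among the alpha subunits, which form the gated outer rings, Psma2 (0.85) and Psma7 (0.78) rose by about the amount of the beta subunits. Psma3 (0.30) and Psma4 (0.62) did not pass, and the counted 3′UTR of Psma3 overlaps the gene 3110056K07Rik, so that reads of both may be mixed.

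Psma1, Psma6 and Psma5 rose by more than the other alpha subunits. Normalised counts of Psma1 in DMSO, in the order A, B and C, were 1096, 1663 and 985 at day −2, 4268, 6984 and 3962 at day 1, 11080, 13690 and 11160 at day 3, and 8970, 6432 and 8945 at day 7. No library of a later day reached down to those of day −2, and the rise was 4.06-fold at day 1 (log2 fold change 2.02 ± 0.255 SE, adjusted p = 3.41e-05), 9.60-fold at day 3 (3.26 ± 0.268, adjusted p = 1.15e-07) and 6.503-fold at day 7 (2.70 ± 0.262, adjusted p = 5.62e-07). The entry counted for Psma1 lies on chromosome 7, minus strand, from 114264550 to 114264899 of mm10, and is the single entry of the gene.

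Most of the rise of Psma6 came after day 1. Its counts were 1812, 1586 and 1949 at day −2 and 2402, 2180 and 2832 at day 1, without overlap but not past the threshold (0.47 ± 0.181, adjusted p = 0.0760). Whether its timing differs from that of Psma1 was not tested. At day 3 they were 6141, 6274 and 8448 and at day 7 6049, 7716 and 6609, all above the libraries of the 2 earlier days. The increase over day −2 was 3.90-fold at day 3 (adjusted p = 5.5e-07) and 3.81-fold at day 7 (adjusted p = 5.42e-07). Psma5 went from 326, 503 and 306 to 971, 1467 and 1296 at day 3 (3.29-fold, adjusted p = 2.22e-05) and stood at 720, 630 and 915 at day 7 (2.00-fold, adjusted p = 0.00230).

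In the 19S regulator the lid was the group in which every member passed. All 8 lid subunits rose by day 3, from 0.70 for Psmd8 to 1.29 for Psmd3, with a median of 0.79. Psmd14, the deubiquitinase of the lid, rose by 0.76 ± 0.181 on the log2 scale (adjusted p = 0.00311). Psmd3 had normalised counts of 2918, 3060 and 2811 at day −2, 4430, 5893 and 4337 at day 1, 7029, 7695 and 6774 at day 3 and 4989, 4688 and 4681 at day 7. Its libraries were above day −2 at every later day and highest at day 3, and it was called at all 3 of them, with log2 fold changes of 0.74 ± 0.160 (adjusted p = 0.00336), 1.29 ± 0.162 (adjusted p = 1.02e-05) and 0.71 ± 0.160 (adjusted p = 0.00200).

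The base was less even. Of its 6 ATPases, which form the unfolding ring, Psmc2 (0.87), Psmc4 (0.85) and Psmc5 (0.93) rose by day 3, while Psmc1 (0.81 ± 0.316, adjusted p = 0.0526), Psmc3 (0.26) and Psmc6 (0.10) did not pass. Psmc6 counts were 1244, 2174 and 1093 at day −2 and 1490, 2208 and 1121 at day 3, so its groups overlapped. The scaffold subunit Psmd1 (0.73) and the ubiquitin receptor Psmd4 (0.92) rose, and Psmd2, the other scaffold subunit, stood at 0.74 with an adjusted p of 0.0173.

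Among the assembly chaperones, 3 of the 4 for the 20S core passed. For the base, Psmd5, Psmd9 and Psmd10 had fold changes of 0.35, 0.24 and -0.01 at day 3, with adjusted p of 0.145, 0.659 and 0.978. For the 20S core, Psmg1 (1.28), Psmg2 (0.97) and Psmg3 (0.71) rose and Psmg4 (0.33 ± 0.342) did not pass. Psmg1 counts were 297, 395 and 305 at day −2 and 603, 945 and 869 at day 3, without overlap. Whether the chaperone groups differ from each other was not tested.

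Of the alternative activators, Psme3 alone passed at day 3. Psme3 encodes the nuclear activator PA28 gamma, and its counts were 953, 672 and 1047 at day −2, 1105, 874 and 1199 at day 1, 2223, 2071 and 2497 at day 3 and 2355, 2673 and 2440 at day 7. The 6 libraries of days 3 and 7 lay above the 6 earlier ones, with a 2.54-fold increase at day 3 (adjusted p = 3.39e-05) and a 2.80-fold increase at day 7 (adjusted p = 1.17e-05). Psme4, which encodes the activator PA200, had 1177, 1488 and 994 at day −2 and 1599, 2187 and 1022 at day 3, and the groups overlapped (0.39, adjusted p = 0.215). Psmf1, an inhibitor of the 20S core, had 883, 859 and 1035 at day −2, 1067, 1147 and 1088 at day 1, 984, 1143 and 949 at day 3, and 1001, 1226 and 1036 at day 7. Its range was narrow throughout (0.15 at day 3, adjusted p = 0.486). RefSeq places Erlec1 over Psme4 and Tmem74b over Psmf1, so their counts are uncertain in the same way as that of Psma3.

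Psme1 and Psme2 encode the interferon-inducible activator PA28 alpha and beta. Psme1 had 1195, 864 and 1478 at day −2 and 566, 386 and 624 at day 1, which was lower in all 3 libraries (2.24-fold, log2 fold change -1.17 ± 0.248, adjusted p = 0.00291). At day 3 it stood at 884, 648 and 1113 and at day 7 at 1342, 1052 and 1395, neither of which differed from day −2 at the threshold (adjusted p = 0.189 and 0.777). Its annotated span overlaps Emc9. Psme2 was counted on a non-coding transcript model, the highest of its 12 entries, with 61.4, 50.1 and 41.7 normalised counts at day −2, 22.1, 36.4 and 9.07 at day 1, 81.0, 80.0 and 74.1 at day 3 and 70.0, 109.5 and 76.5 at day 7. The 3 libraries of day 1 were the lowest of the 12 and day 3 was 3.48-fold above day 1 (adjusted p = 0.00381), but day 1 did not pass against day −2 (-1.19 ± 0.413, adjusted p = 0.0511).

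Day 1 and day 7 held fewer calls than day 3. At day 1 the 2 higher members were Psma1 and Psmd3 and the 4 lower ones Psmb8, Psmb9, Psmb10 and Psme1, where 6.99% of all tested genes were called higher and 9.86% lower. For 22 members the libraries of day 1 all lay above those of day −2, against 20.2% of all genes. Without replicate A or without replicate C, 1 higher and 1 lower member remained past the threshold at day 1. At day 7, 15 members were higher and 2 lower, with 18.9% and 19.4% of all tested genes, and 28 members had all 3 libraries above day −2, against 29.6%. The 15 were Psma1, Psma5, Psma6, Psma7, Psmb3, Psmb6, Psmc4, Psmd1, Psmd3, Psmd7, Psmd8, Psmd13, Psmg1, Psmg2 and Psme3. Without replicate A 3 were called higher and 0 lower at day 7, without replicate C 4 and 1, and without replicate B 22 and 2.

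Between adjacent days, 8 members rose from day 1 to day 3 (Psma1, Psma5, Psma6, Psmb3, Psmb6, Psmd1, Psme2 and Psme3) and Psmb9 fell, with 11.3% of all tested genes called higher and 11.9% lower. The count was 1 higher and 1 lower without replicate A, 2 and 1 without replicate C and 22 and 2 without replicate B. From day 3 to day 7, the median of the members was -0.22, but none was called lower, where 4.34% of all tested genes were. Psmb8 and Psmb9 were called higher (6.54% of all tested genes). In edgeR, 12 members had an unadjusted p under 0.05, among them Psma5 (-0.72) and Psmd3 (-0.58) on the lower side, and DESeq2 called 1 member lower. The share of all tested genes at that unadjusted threshold is not given, so the count of 12 cannot be judged against it.

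Of the catalytic subunits of the 20S core, the constitutive Psmb5 and Psmb6 rose by day 3 and the interferon-inducible Psmb8 and Psmb9 fell, while Psmb7 and Psmb10 did not pass. Psmb5, the chymotrypsin-like site, had 215, 311 and 208 normalised counts at day −2, 237, 329 and 278 at day 1, 378, 577 and 564 at day 3 and 428, 371 and 450.0 at day 7. All libraries of days 3 and 7 exceeded those of day −2, and day 3 passed (2.07-fold, adjusted p = 0.00162) while day 7 did not (adjusted p = 0.0126). Psmb6, the caspase-like site, had 1435, 1724 and 1599 at day −2, 1853, 2039 and 2118 at day 1, 2640, 3050 and 3570 at day 3 and 2302, 2751 and 2837 at day 7. It was above day −2 at each later day without overlap, and rose 1.95-fold at day 3 (adjusted p = 0.000225) and 1.66-fold at day 7 (adjusted p = 0.00200). Psmb7, the trypsin-like site, had 1501, 641 and 803 at day −2, 1096, 1036 and 764 at day 1, 2422, 1972 and 1419 at day 3, and 2080, 1978 and 1372 at day 7. Its library A of day −2 lay above the lowest of day 3 and of day 7, and neither day passed (adjusted p = 0.0132 and 0.0224).

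Psmb8, the inducible counterpart of Psmb5, had 254, 263 and 288 normalised counts at day −2, 34.0, 32.8 and 30.5 at day 1, 9.85, 27.8 and 10.4 at day 3 and 82.4, 101 and 99.4 at day 7. The 4 days did not overlap, day 3 being lowest. It fell 8.24-fold by day 1 (-3.04 ± 0.328, adjusted p = 7.28e-06) and 16.7-fold by day 3 (-4.06 ± 0.358, adjusted p = 2.39e-07), and from day 3 to day 7 it rose 5.87-fold (adjusted p = 0.000136), which left it 2.84-fold below day −2 (adjusted p = 0.000809). The libraries of day 3 held 9, 24 and 9 raw reads of Psmb8, so the day 3 level carries a large counting error.

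Psmb9, the inducible counterpart of Psmb6, fell more slowly. Its counts were 240, 195 and 269 at day −2, 119.5, 80.2 and 106 at day 1, 18.6, 18.6 and 8.10 at day 3 and 71.1, 58.4 and 91.4 at day 7. Day −2 and day 3 stood apart from the other days, and days 1 and 7 overlapped. Against day −2 it was 2.30-fold lower at day 1 (adjusted p = 0.00781), 15.4-fold lower at day 3 (-3.95 ± 0.352, adjusted p = 2.74e-07) and 3.19-fold lower at day 7 (adjusted p = 0.000312), and it rose 4.83-fold from day 3 to day 7 (adjusted p = 0.000332). Psmb10, the counterpart of Psmb7, had 390, 526 and 345 at day −2, 102, 194 and 113 at day 1, 174, 315 and 152 at day 3 and 341, 454 and 297 at day 7. It was lowest at day 1, when it fell 3.08-fold (adjusted p = 0.00158), and did not pass at day 3 (-0.98, adjusted p = 0.0200) or day 7 (-0.21, adjusted p = 0.623).

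**Figure D3:**
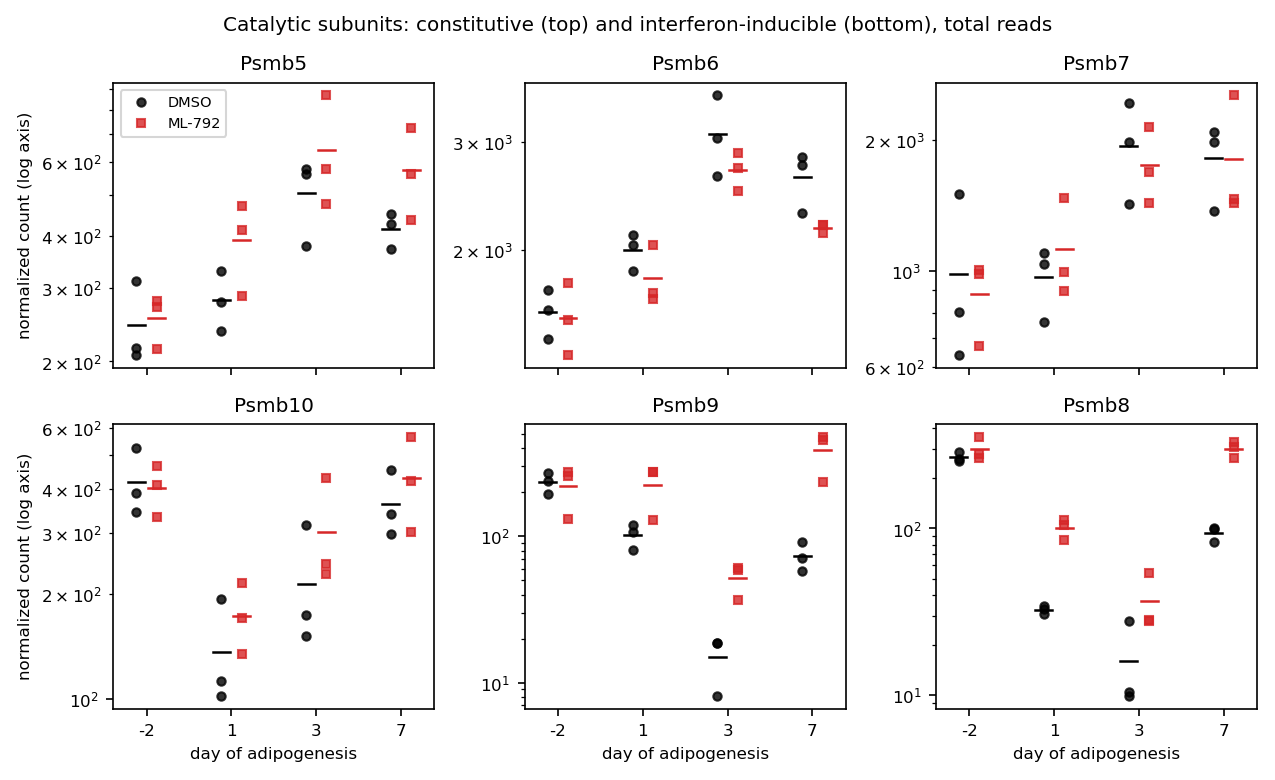
Normalised total counts of the catalytic subunits in all 24 libraries on a log axis, by day, with Psmb5, Psmb6 and Psmb7 in the upper row and their inducible counterparts Psmb8, Psmb9 and Psmb10 in the lower row. Black circles are DMSO libraries, red squares ML-792 libraries, and bars the means of 3. Psmb8 and Psmb9 reach their lowest DMSO levels at day 3, and the ML-792 libraries lie above all DMSO libraries for both genes at day 7.

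Psmb8 and Psmb9 lie near Tap1, a subunit of the peptide transporter of antigen presentation, on chromosome 17 of mm10: the counted entries were 34182030 to 34182223 (minus strand) for Psmb9, 34196775 to 34197225 (plus strand) for Tap1 and 34201267 to 34201454 (plus strand) for Psmb8. Of a list of 10 interferon and antigen presentation genes, 4 were called lower at day 1 (9.86% of all tested genes), 7 at day 3 (19.4%) and 3 at day 7 (19.4%, so that the last count is not far from the share of all genes), and none higher. At day 3, Tap1 had fallen 6.96-fold, B2m, the light chain of class I molecules, 6.14-fold, and Irf9, a subunit of the interferon-stimulated transcription complex, 8.85-fold. The median of the list was -1.41 at day 3. Immune cell markers were near absent in every group: Ptprc, the pan-leukocyte marker, had 0 reads in all 24 libraries, Adgre1 had 0 to 5, and the highest count of any of the 5 markers in a library was 121, for Cd68.

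Short promoter windows are shown for 4 members that carry the results above, to place the letters of factors known for these genes. RefSeq promoters (GRCm38.p6, the same coordinates as mm10, from 250 bases before to 50 after the start) were found for 40 of the 48 members, in 43 promoters. The antioxidant response element that Nfe2l1 binds was searched on both strands as TGACNNNGC and TGAGNNNGC. TGACNNNGC was in 6 of the 43 (14.0%), against 12.4% of all 32851 promoters, and TGAGNNNGC in 13 (30.2%), against 17.6%. Each window runs 5′ to 3′ along the gene's strand, and capitals mark the match.
Psmb5, chr14:54618024-54618052, minus strand, match on the gene's strand: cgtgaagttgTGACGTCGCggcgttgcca
Psmb6, chr11:70525338-70525366, plus strand, match on the gene's strand: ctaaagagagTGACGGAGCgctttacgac
Psmb3, chr11:97703414-97703442, plus strand, match on the gene's strand: gcgttgacccTGAGAAAGCcagagccggt
Psma6, chr12:55398723-55398751, plus strand, match on the opposite strand: gcgagggcccGCCTACTCAggggcagtgc

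The matches start 47 bases before the start of Psmb5, 9 before that of Psmb6, 10 before that of Psmb3 and 92 before an annotated start of Psma6. Another annotated start of Psma6 has its own TGAGNNNGC match 170 bases before it (chr12:55384042-55384070). Which of these starts the cells used was not tested. These 4 were chosen among carriers that rose by day 3, and the match is a description of these letters that shows no binding. Carriers that did not pass at day 3 were Psmc6 (0.10), Psmd9 (0.24) and Psme4 (0.39) for TGACNNNGC, and Psma4 (0.62), Psmd5 (0.35), Psmg4 (0.33) and again Psmc6 for TGAGNNNGC. Psmb3 (115, 139 and 129 normalised counts at day −2, 280.1, 361 and 471 at day 3) rose 2.90-fold (adjusted p = 8.82e-05). Promoters of Psmb1, Psmb2, Psmb7, Psmc3, Psmd3, Psmd7, Psmg2 and Psma8 were not in the table used here.

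Of 17 listed partners of the proteasome outside the Psm symbols, 16 were tested, and 4 rose by day 3 with none lower, where 16.6% of all tested genes were called higher and 19.4% lower: Adrm1, a ubiquitin receptor of the base (1.24), Uchl5, a deubiquitinase bound to it (1.34), Ddi2, the protease that releases Nfe2l1 (1.51), and Zfand5, a proteasome activator (0.79). The median of the list was 0.26. Adrm1 counts were 107, 118 and 179 at day −2, 145, 183 and 200.4 at day 1, 245, 272 and 434 at day 3 and 305, 161 and 401 at day 7, with day 3 above day −2 in every library (2.36-fold, adjusted p = 0.00671). Pomp, the maturation factor of the 20S core, had 5021, 4930 and 3238 at day −2 and 8890, 9095 and 5672 at day 3, without overlap but not past the threshold (0.84, adjusted p = 0.0178).

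Ddi2 had 162, 194 and 194 normalised counts at day −2, 310, 355 and 332 at day 1, 548, 548 and 473 at day 3, and 420, 433 and 345 at day 7, all later libraries lying above day −2 (2.86-fold at day 3, adjusted p = 7.28e-06). Nfe2l1 itself was lower at day 1 and not at day 3: its counts were 2724, 3167 and 2647 at day −2, 1585, 2073 and 1629 at day 1, 2917, 3086 and 3033 at day 3 and 3870, 3055 and 3822 at day 7. The fall at day 1 was 1.61-fold (-0.69 ± 0.166, adjusted p = 0.00666). Sem1, a small lid subunit listed under its older symbol Shfm1, had 5864, 8487 and 5053 at day −2 and 3835, 3541 and 3950 at day 7, lower in every library but not past the threshold (-0.78, adjusted p = 0.0251).

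Of the 18 genes for ubiquitin and for delivery of substrates to the proteasome, 3 rose and 3 fell by day 3, close to the 16.6% and 19.4% of all tested genes, and 6 rose and 2 fell by day 7 (18.9% and 19.4% of all tested genes). The shuttle factors went in opposite directions, as Ubqln1 rose 3.04-fold by day 7 (adjusted p = 1.71e-06) and Ubqln2 fell 3.65-fold (adjusted p = 4.58e-05). The median of this list was 0.34 at day 3, against 0.85 for the constitutive subunits.

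With ML-792, the proteasome genes called were Psmb8, Psmb9, Psma1, Psma4 and Psma6. At day −2, 0 members differed from DMSO in edgeR at an adjusted p under 0.1, with 0 of 46 at an unadjusted p under 0.05 and 0 by DESeq2, where 0.0% of all tested genes were called (184 at an unadjusted p under 0.05). At day 1, 3 members differed, with 8.03% of all tested genes: Psmb8 and Psmb9 were higher and Psma1 lower. The same 3 members differed at day 3, where 15.4% of all tested genes did. At day 7 there were 4, with 11.6% of all tested genes: Psmb8, Psmb9 and Psma4 were higher and Psma6 lower. The counts at days 1 and 7 are near those shares of all tested genes. Without replicate A they were 1, 1 and 2 at days 1, 3 and 7, and without replicate C they were 2, 1 and 2. The median of the members under ML-792 against DMSO was -0.06, -0.11, -0.03 and 0.01 at the 4 days, and none of the 31 constitutive subunits apart from Psma1, Psma4 and Psma6 passed at any day.

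The course of the complex under ML-792 kept its day 3 maximum. The members held 0.501% ± 0.0468, 0.646% ± 0.0521, 0.871% ± 0.0539 and 0.731% ± 0.0542 of the reads at days −2, 1, 3 and 7 (SD, n = 3), and 28 of 46 had their highest mean at day 3 (60.9%, against 21.9% of all tested genes). Of the rest, 14 were highest at day 7, among them Psmb8, Psmb9 and Psmb10, whose DMSO maximum was at day −2. With ML-792 the libraries of days −2 and 7 overlapped for each of these genes, and in DMSO they overlapped for Psmb10. The day of the highest mean is therefore uncertain for them.

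Psmb8 was higher in all 3 ML-792 libraries than in all 3 DMSO libraries at each day after induction. Its ML-792 counts were 281, 267 and 354 at day −2, 112, 105 and 84.8 at day 1, 54.4, 27.9 and 28.0 at day 3 and 266, 329 and 309 at day 7. At day 7 they overlapped those of day −2, whereas the DMSO libraries had 82.4, 101 and 99.4. The difference was 3.09-fold at day 1 (1.63 ± 0.289, adjusted p = 0.000747), 2.31-fold at day 3 (adjusted p = 0.0203) and 3.19-fold at day 7 (1.67 ± 0.272, adjusted p = 0.000238). At day 3 the lowest ML-792 library (27.9) and the highest DMSO library (27.8) nearly touched, the fold change was 0.53 without replicate A, and the call was lost without replicate A and without replicate C.

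Psmb9 showed the same order. Its ML-792 counts were 258, 131 and 274 at day −2, 274, 129 and 274 at day 1, 37.0, 60.8 and 58.5 at day 3 and 477, 235.5 and 452 at day 7. All ML-792 libraries were above all DMSO libraries at days 1, 3 and 7, and at day 7 the highest DMSO library had 91.4 and the lowest ML-792 library 235.5. The differences were 2.21-fold at day 1 (adjusted p = 0.0480), 3.41-fold at day 3 (adjusted p = 0.00581) and 5.27-fold at day 7 (2.40 ± 0.351, adjusted p = 6.14e-05). The call at day 1 was lost without replicate A and without replicate C, with fold changes of 1.13 and 1.02 on the log2 scale, and that at day 3 without replicate C (1.39). Psmb10 had 423, 565 and 302 with ML-792 at day 7 and did not pass at any day (0.24 at day 7, adjusted p = 0.772). Whether the effect of ML-792 on Psmb10 differs from that on Psmb8 or Psmb9 was not tested.

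The effect of ML-792 differed between days for 2 members, Psmb8 (interaction adjusted p = 0.0285) and Psmb9 (adjusted p = 0.00683), where 11.9% of all tested genes passed. Neither interaction passed without replicate A or without replicate C. Of the 10 interferon and antigen presentation genes, 4 were also higher with ML-792 at day 7: H2-D1 (3.75-fold, adjusted p = 1.66e-06) and H2-K1 (3.06-fold, adjusted p = 1.83e-05), heavy chains of class I molecules, B2m (2.56-fold, adjusted p = 0.00157) and Tap1 (2.44-fold, adjusted p = 0.000343). At day 3 these 4 were higher as well, while the transcription factor Irf1 was lower with ML-792 (-0.85, adjusted p = 0.00861). The 5 immune cell markers summed to between 47.4 and 69.9 normalised counts in DMSO at day 7 and to between 32.2 and 51.9 with ML-792, with Ptprc at 0 in both. Pre-adipocyte markers summed to between 25490 and 38000 in DMSO and to between 44970 and 64010 with ML-792 at day 7, and adipocyte markers to between 638200 and 712400 and to between 845200 and 911300. These sums do not stand for every marker. Normalised counts of Dlk1 at day 7 were 2949, 2883 and 3496 in DMSO and lower, 1693, 1019 and 1736, with ML-792. Col1a1, Col3a1, Pdgfra and Ly6a were higher with ML-792 without overlap, and Thy1 and Cd34 overlapped. Of the adipocyte markers, Adipoq, Fabp4 and Cd36 were higher without overlap, and Lpl, Cidec, Plin1, Pparg and Cebpa overlapped. The part of either list in the results for Psmb8 and Psmb9 was not tested.

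Psma1 was lower with ML-792 while it rose. Its ML-792 counts were 917, 928 and 1197 at day −2, 2358, 2829 and 2720 at day 1, 5161, 6069 and 7570 at day 3 and 6180, 5545 and 7255 at day 7. At days 1 and 3 all ML-792 libraries lay below all DMSO libraries, by 1.92-fold at day 1 (-0.94 ± 0.222, adjusted p = 0.0104) and 1.91-fold at day 3 (-0.93 ± 0.222, adjusted p = 0.00632), and at day 7 the groups overlapped (-0.36, adjusted p = 0.432). Both calls were lost without replicate A, with fold changes of -0.96 and -0.88 on the log2 scale. The interaction of day and treatment did not pass for Psma1 (adjusted p = 0.366).

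Psma6 and Psma4 differed at day 7. Psma6 had 4704, 4083 and 4581 with ML-792, below the DMSO libraries (1.52-fold, -0.61 ± 0.157, adjusted p = 0.0168). Psma4 had 288, 282 and 325 with ML-792 and 182, 144 and 176 in DMSO, without overlap (1.79-fold, 0.84 ± 0.228, adjusted p = 0.0235), and its entry is a predicted transcript model. Both calls were lost without replicate A and without replicate C, with fold changes of -0.71 and -0.63 for Psma6 and of 0.94 and 0.83 for Psma4. For both the interaction missed the threshold (adjusted p = 0.121 and 0.336). Among the partners, Nfe2l1 was lower with ML-792 at day 1 (1.37-fold, adjusted p = 0.0708), Ddi2 at day 3 (1.61-fold, adjusted p = 0.00803) and Txnl1, a thioredoxin-like protein bound to the 19S regulator, at day 7 (1.56-fold, adjusted p = 0.00474). Sqstm1, an autophagy receptor for ubiquitinated proteins, fell 2.01-fold with ML-792 at day 7 (adjusted p = 9.94e-05).

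**Figure D4:**
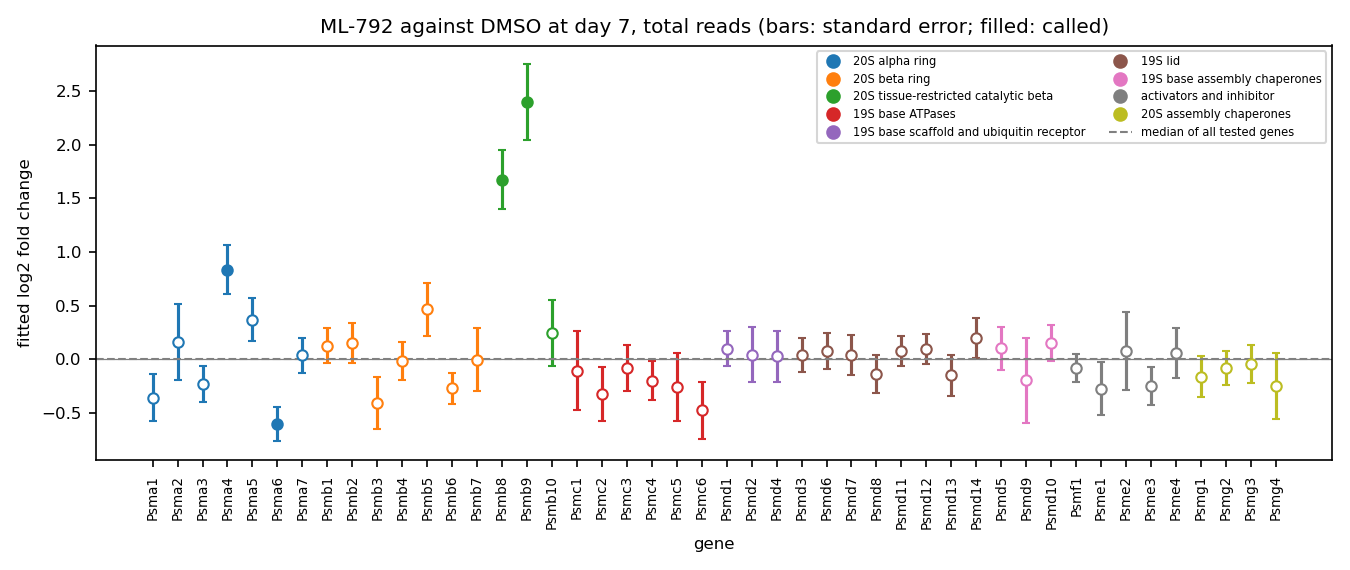
Fitted log2 fold change of the 46 tested proteasome genes with ML-792 against DMSO at day 7, grouped by role, with the standard error of the fit as bars. Filled points passed an adjusted p under 0.1 and the dashed line is the median of all tested genes. Psmb9 and Psmb8 lie above all other members, Psma4 and Psma6 are the remaining filled points, and the other members scatter around 0.

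Labelled reads, those with at least 1 T-to-C conversion, gave few calls among the members, and most members had few such reads. The libraries of induced cells held a smaller labelled share than those of day −2: in DMSO the tested members had median shares of 1.76%, 0.796%, 0.564% and 0.628% on days −2, 1, 3 and 7, and all genes tested had 2.97%, 1.21%, 0.947% and 1.04%. At day −2 the members lay between 0.841% for Psma7 and 8.37% for Psma3, whose counted 3′UTR overlaps 3110056K07Rik. A labelled read needs a T in the counted stretch, and the entries of the members were short, with a median length of 296 bases and 86 T, against 1328 bases and 395 T for all genes tested. The part of entry length in the lower share was not tested.

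With labelled counts scaled by total reads, the members had median log2 fold changes of -0.78, -0.84 and -0.75 on days 1, 3 and 7 relative to day −2, and all genes had -1.20, -1.64 and -1.47, whereas scaling by each library's own labelled reads turned the members' medians to 0.53, 0.71 and 0.66, with all genes at 0.06, -0.12 and -0.04. The direction of a labelled change thus depends on the scaling, and the position of the members relative to all genes hardly does: the members' median exceeded that of all genes by 0.42, 0.81 and 0.72 with the first scaling and by 0.48, 0.82 and 0.70 with the second. At day 3, 30 of the 35 members lay above the median of all genes with either scaling.

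With labelled counts scaled by total reads, Psma1 was the member that rose in labelled reads as well. Its normalised labelled counts were 19.6, 20.6 and 12.4 at day −2, 28.5, 41.0 and 14.0 at day 1, 58.0, 54.5 and 72.9 at day 3 and 54.2, 31.3 and 38.8 at day 7. The libraries of days 3 and 7 lay above those of day −2, and day 3 passed with both scalings (1.81 ± 0.478 with total reads, adjusted p = 0.00186). At day 3 Psma1 was the 1 member called higher, with 1.99% of all tested genes, and Psma3 and Psmd6 were called lower, with 32.3%. Without replicate A or without replicate C, 0 members were called at day 3, and without replicate B 1. With each library's own labelled reads as the scale, 4 members including Psma1 were called higher at day 3 and none lower.

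At day 1, 0 members were higher (0.56% of all tested genes) and Psmd10 was lower (18.9% of all tested genes) in labelled reads, and at day 7, 0 were higher (1.99%) and Psmd10, Psma2, Psmb4 and Psme4 lower (28.1%). DESeq2 called 0 higher at both days. Psmd10, a base chaperone also known as gankyrin, had 27.8, 29.5 and 25.8 normalised labelled counts at day −2, 9.20, 0.911 and 4.95 at day 1, 5.47, 5.80 and 9.26 at day 3 and 4.51, 2.09 and 7.995 at day 7, every later library being below day −2. Psmd10 met the filter on low labelled counts only through the libraries of day −2, where it was high. Its lower calls are against that same day, so they describe these counts and are no independent support for a fall. Psmd6 had 25.4, 30.4 and 28.4 at day −2 and 4.38, 1.16 and 8.10 at day 3, and Psma3 had 15.6, 44.7 and 36.4 and then 9.85, 4.64 and 8.10. Psme4 had 36.0, 33.1 and 23.98 at day −2 and 6.77, 2.09 and 7.995 at day 7. Psma3 overlaps 3110056K07Rik and Psme4 overlaps Erlec1, so labelled reads of those genes may be mixed in. None of these lower calls passed with scaling by labelled reads, which instead gave 2 higher and 0 lower members at day 1 and again at day 7, and none of them held without replicate A or without replicate C.

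**Figure D5:**
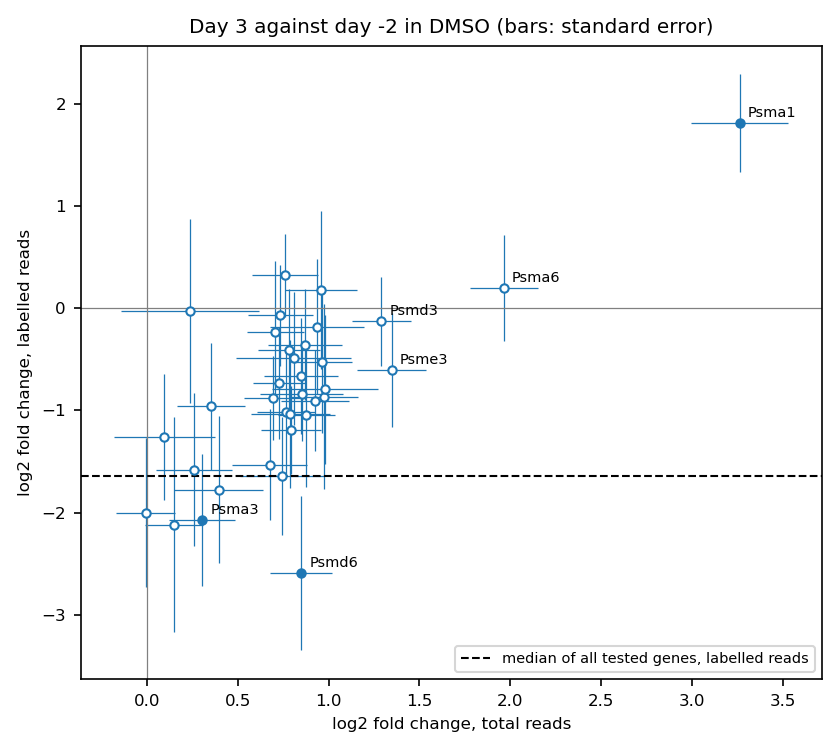
Fitted log2 fold change at day 3 against day −2 in DMSO of the 35 proteasome genes tested in both kinds of reads, with total reads on the x axis, labelled reads scaled by total reads on the y axis, and standard errors as bars. Filled points passed in labelled reads, and the dashed line is the labelled median of all tested genes. Psma1 stands alone at the upper right, and most members have a labelled change below 0, a direction that turns when each library's own labelled reads set the scale.

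Between days 1 and 3 and between days 3 and 7, 0 of 35 members passed in labelled reads by edgeR and 0 by DESeq2, with 2 and 0 at an unadjusted p under 0.05. With ML-792, 0 of 35 passed at any day in edgeR, where 0.0%, 1.06%, 1.12% and 0.964% of all tested genes did at days −2, 1, 3 and 7. At an unadjusted p under 0.05 there were 0, 1, 1 and 4 members (Psmc2, Psmd1, Psmd2 and Psmf1 at day 7), and DESeq2 called 0, 1, 0 and 0. Shares of all tested genes at the unadjusted threshold are not given, so these unadjusted counts cannot be judged against them. The interaction of day and treatment passed for 0 members by edgeR and 0 by DESeq2, with 0 at an unadjusted p under 0.05, and for 0.28% of all tested genes. Psmb8, with 0 to 11 labelled reads per library, and Psmb9, with 0 to 5, were too low to be tested, so a difference in their labelled RNA was not detectable at this depth.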

How the data were processed

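Total RNA (QuantSeq) and newly made RNA (SLAMseq) were measured together in 24 libraries from 3T3-L1 cultures. The authors mapped reads with SlamDunk to mm10, counted them on RefSeq 3′UTRs from UCSC, and deposited raw counts of all reads and of labelled reads (at least 1 T-to-C conversion) for 91830 entries, with no normalization. Libraries were demultiplexed with bcl2fastq 2.17.1.14 per the labels. Each table also has 6 library columns that match no sample used here, and they were left out. Entries of one gene can overlap.

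Counts were fitted with edgeR 4.0.16 in R 4.3.3: TMM factors over the 24 libraries, filterByExpr (minimum count 10, minimum total 15), and a robust quasi-likelihood fit with Benjamini-Hochberg adjustment over the 26563 total and 10589 labelled entries tested, which stood for 13331 and 6434 genes at one entry per gene. For labelled counts, library size and TMM factor were those of the library's total reads. The time course was fitted in the 12 DMSO libraries (adjusted p under 0.01), and ML-792 against DMSO and the day by treatment interaction (3 terms) in all 24 (adjusted p under 0.1). Normalised counts are counts scaled to the mean effective library size. The methods describe 3 biological replicates per condition, and p-values measure the spread between these cultures of one line. The number of replicates and the reads per gene limit the precision, and PCR duplicates were not marked by molecular identifiers.

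Members and lists were chosen with earlier results of these data known. Values in every library are given for the catalytic subunits, the activators and the inhibitor, and for called members without overlap that had the 2 highest or 2 lowest fold changes of a comparison. They are also given for Nfe2l1, Pomp, Adrm1 and Sem1. Psma5, Psmb3, Psmc6, Psmg1 and Ddi2 were added after their values were seen. The alternatives were DESeq2 1.42.0, a single entry or the sum of entries for each gene, no filter on low counts, other libraries in the fit, a replicate block, each replicate left out, labelled reads as library sizes, and a prior count of 0.5. The code was tested on simulated counts. Sequences come from RefSeq (GRCm38.p6).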

Additional observations from a re-analysis of the deposited data

Results flagged for a closer look

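The effect of ML-792 against DMSO differed between days, by the interaction test of edgeR at an adjusted p under 0.1, for 2 proteasome genes. These were Psmb8 (adjusted p = 0.0285) and Psmb9 (adjusted p = 0.00683), where 11.9% of all tested genes passed. Neither passed without replicate A or without replicate C. Both were nearest to DMSO at day −2 and farthest above it at day 7. Of the interferon and antigen presentation genes, 4 also passed: B2m (adjusted p = 0.0281), H2-D1 (adjusted p = 0.000187), H2-K1 (adjusted p = 0.00292) and Tap1 (adjusted p = 0.0271). Of the proteasome partners Ddi2 passed (adjusted p = 0.0969), and of the ubiquitin genes Sqstm1 (adjusted p = 0.000595). Each value is for total reads.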

How the results depend on the processing

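For single genes, the 81 called results were refitted under the alternatives, which gave 737 refits: 593 kept direction and call, 144 kept direction only, and 0 reversed. Calls were lost mainly without replicate A (61 of 81) and without replicate C (58 of 81), and 6 of 81 without replicate B, while DESeq2, one entry per gene and entries summed per gene kept all 81. With each replicate left out in turn, the number of members called in total reads ranged from 2 to 6 at day 1 against day −2 (6 in all libraries), from 8 to 33 at day 3 (29), from 3 to 24 at day 7 (17), from 2 to 24 at day 3 against day 1 (9) and from 0 to 7 at day 7 against day 3 (2). Under ML-792 it ranged from 1 to 3 at day 1 (3), from 1 to 3 at day 3 (3) and from 2 to 6 at day 7 (4), and from 0 to 4 for the interaction (2). In labelled reads it ranged from 0 to 1 at day 1 (1), from 0 to 1 at day 3 (3) and from 0 to 2 at day 7 (4). DESeq2 called 10 at day 1, 14 at day 3 against day 1 and, in labelled reads under ML-792 at day 1, 1 where edgeR called 0. With no filter on low counts, 0, 1 and 2 members were called in labelled reads at days 1, 3 and 7, and with labelled reads as library sizes the calls turned upward: 2 at day 1 (2 higher and 0 lower, against 0 and 1), 4 at day 3 (4 and 0, against 1 and 2) and 2 at day 7 (2 and 0, against 0 and 4). The cause of these differences was not tested.

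Replicate letters were not taken as pairing the libraries in the main fits. On average, same-letter pairs did deviate together from the condition means, although not every pair did. In total reads the 84 same-letter pairs correlated at a mean r of 0.191, from -0.173 to 0.523, and the 168 different-letter pairs at -0.0939. What the letters share was therefore left in the spread, and a member that did not pass in the main fits can pass with the block. With the letter as a block, members called in total reads numbered 11 at day 1, 34 at day 3 and 28 at day 7, against 6, 29 and 17 without it. They numbered 19 at day 3 against day 1 and 5 at day 7 against day 3, where the main fits gave 9 and 2. Under ML-792 the block gave 8 at day 3, 7 at day 7 and 5 for the interaction, and in labelled reads it gave 5 at day 3. All 81 called single-gene results kept their call with the block.

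Members with under about 10 labelled reads per library, and Psmb8 and Psmb9 at day 3, are limited by depth.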
